A study of Mus musculus with 2 samples.

Results

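The RNA of 40 genes of the cell cycle and of DNA replication was described in the nucleoplasm of mouse macrophages stimulated 2 times with lipid A. The genes were taken by symbol from a list of 13 G1 genes, 11 S phase genes, 11 G2/M genes and 5 inhibitors, and all 40 were found among the 55536 genes quantified, of which 22028 were protein-coding. The study held 2 libraries of 1 group, which the labels number as biological replicates and place under a single donor entry, with separate biosample entries. The cells were bone marrow-derived macrophages, phagocytes that differentiate in culture from marrow cells, of the C57BL/6J strain, with no genetic change named. Lipid A, the membrane anchor of bacterial lipopolysaccharide that activates the receptor TLR4, was given at 100 ng/ml for 12 h, withdrawn for 12 h, and given again at 100 ng/ml for 90 min. Ribosomal RNA was removed from RNA of the nucleoplasmic fraction, which the labels also call nuclear, from a starting amount of 1 µg in replicate 1 and 500 ng in replicate 2. The labels do not give the sex, age or stage of the mice. Untreated cells, cells stimulated a single time and other fractions were not analysed here, so the values describe 1 condition and no test between conditions was made.

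Entry into the cell cycle is driven by D-type cyclins with the kinases Cdk4 and Cdk6 and by cyclin E with Cdk2, which phosphorylate the retinoblastoma protein Rb1 and release E2F transcription factors. E2F factors switch on the genes of DNA replication, while the genes of mitosis are kept off in resting cells by the DREAM complex and are transcribed later, in G2. Inhibitors of the Cip/Kip and Ink4 families block the kinases, and macrophages cultured from marrow are known to divide in response to the growth factor Csf1 and to slow their division when lipopolysaccharide is added.

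Gene counts summed to 29400104 in replicate 1 and 17789543 in replicate 2, so replicate 1 was the more deeply sequenced. The rounded expected count of the 40 genes ran from 4 to 12111 in replicate 1 (median 159.5) and from 1 to 5154 in replicate 2 (median 123.5). The 15 macrophage markers had a median of 74.7 TPM (a level scaled to library size and corrected for transcript length) in replicate 1 and 53.6 in replicate 2, and all of them reached 1 TPM in both libraries. The 12 markers of haematopoietic progenitors, the dividing cells that a marrow culture could still hold, had medians of 0.025 and 0.045 TPM. None of the 12 reached 1 TPM in both libraries, together they summed to 1.75 and 2.03 TPM, and 3 of them had no count in either library. Their highest was Myb, a transcription factor of progenitors, at 0.75 and 0.79 TPM, and at 0.78 and 1.77 TPM in the second quantification. The highest macrophage marker, the lysozyme gene Lyz2, had 698.8 and 1099.0 TPM in the first. Medians were 0.04 and 0.07 TPM for 9 neutrophil markers, 0.035 and 0.15 for 8 erythroid markers, 0 and 0 for 9 lymphocyte markers and 0.10 and 0.07 for 9 stromal and endothelial markers. Of the markers in these 4 lists, only Tfrc, the transferrin receptor that many cell types carry, reached 1 TPM in both libraries, at 26.3 and 51.1 TPM. The highest of the other lists, Mmp8 (0.56 and 0.84 TPM), Ighm (0.30 and 0.20 TPM) and Pecam1 (0.41 and 0.48 TPM), stayed under it. The second quantification gave Pecam1, an endothelial adhesion molecule also found on leukocytes, 1.31 and 7.20 TPM.

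By class median, inhibitors and G1 genes were above S phase genes and G2/M genes were lowest, while the 5 inhibitors ranged widely, from Cdkn2c (0.73 TPM on average) to Cdkn1a (83.8 TPM). Of the 40 genes, 23 (57.5%) reached 1 TPM in both libraries, against 38.6% of all protein-coding genes. The 23 comprised 11 of 13 G1 genes (84.6%), 7 of 11 S phase genes (63.6%), 3 of 5 inhibitors (60%) and 2 of 11 G2/M genes (18.2%), so the share of the G2/M genes was below that of protein-coding genes at large and the shares of the other classes were above it. Another 13 genes were under 1 TPM in both libraries and 4 reached 1 TPM in 1 library only, Ccne2 and E2f2 in replicate 2 and Cdk1 and Cdkn2d in replicate 1. RNA in fewer cells and less RNA per cell cannot be told apart in these bulk libraries.

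The inhibitors had median levels of 5.70 and 9.34 TPM in replicates 1 and 2 (7.52 ± 2.57, SD, n = 2 libraries). The G1 genes had medians of 3.94 and 4.03 TPM (3.99 ± 0.064). The S phase genes had medians of 1.14 and 1.47 TPM (1.31 ± 0.233). The G2/M genes were lowest, with medians of 0.31 and 0.40 TPM (0.355 ± 0.064), beside 0.18 and 0.25 TPM for all protein-coding genes. The order of the classes, inhibitors above G1, G1 above S and S above G2/M, was the same in replicate 1 and in replicate 2, and the library values of 1 class did not overlap those of another. The second quantification gave the same order within each library. Its medians were 2.39 and 5.03 TPM for the inhibitors, 1.84 and 3.85 for the G1 genes, 0.670 and 1.28 for the S phase genes and 0.269 and 0.560 for the G2/M genes. There the library values of the inhibitors and of the G1 genes overlapped, while those of the other classes did not. The 4 genes of highest mean over both libraries, Cdkn1a, Cdk6, Max and Mki67, held 66.2% of the summed TPM of the 40 in replicate 1 and 61.9% in replicate 2. The authors' credibility intervals did not overlap between the libraries in 11 genes, all of them among the 37 with a mean count of 10 or more (29.7%), where 39.4% of protein-coding genes with such counts did not. In 8 genes, 7 of them among the 37 (18.9%, beside 13% of protein-coding genes), the TPM lay outside its own interval in at least 1 library, above it only for Cdkn1a in replicate 2 (93.6 TPM beside an interval of 87.2 to 92.9) and otherwise below it.

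**Figure D1:**
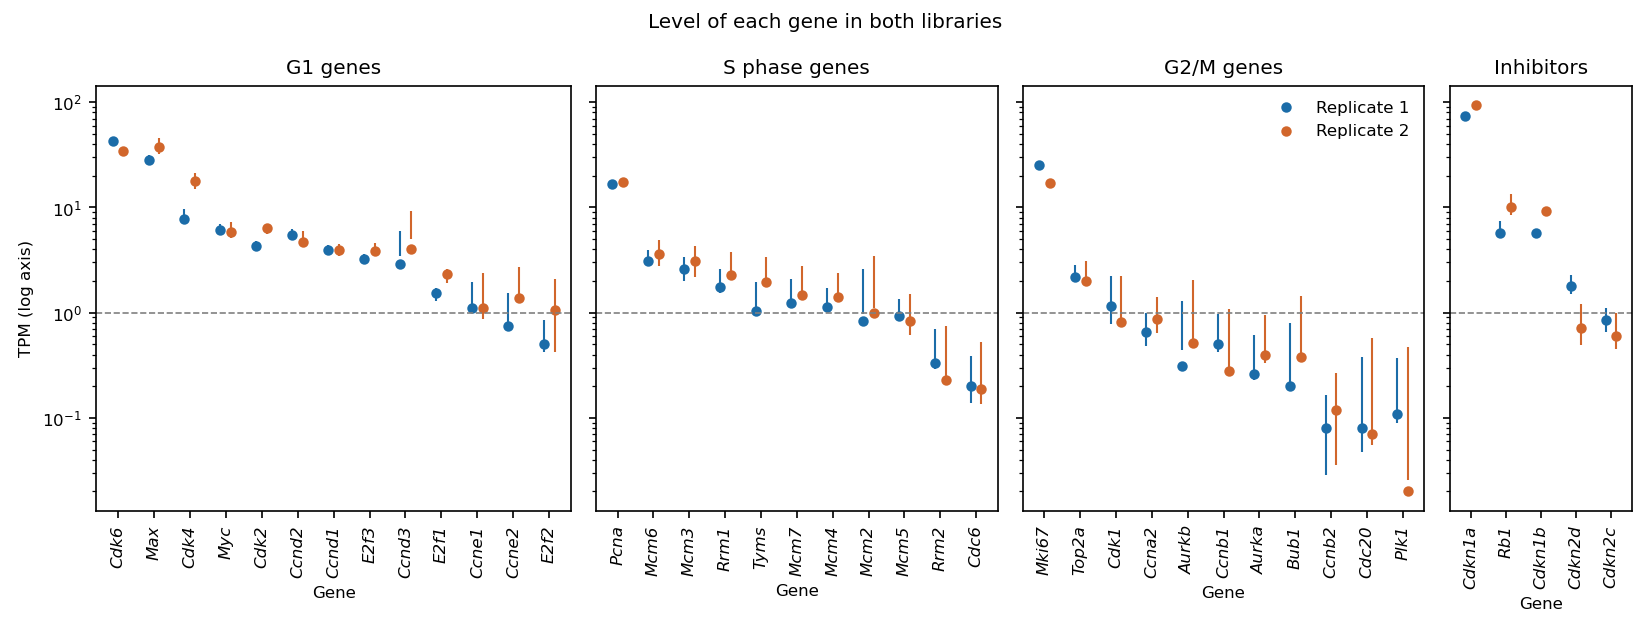
Level of each of the 40 genes in TPM (log axis) in replicate 1 (blue) and replicate 2 (orange), by class and in falling order of the mean, with the authors' credibility interval as a vertical line and 1 TPM as a dashed line. G1 genes lie mostly above 1 TPM (11 of 13 in both libraries) and G2/M genes mostly below it, with only Mki67 and Top2a above it in both libraries.

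Cdkn1a, which encodes the Cip/Kip inhibitor p21, had the highest level of the 40 genes. It lies on mm10 chromosome 17 from 29090976 to 29100727. It reached 73.9 and 93.6 TPM in replicates 1 and 2 (83.8 ± 14.0, SD, n = 2), which placed it at the 98.4th percentile of protein-coding genes. Its rounded counts were 5588 and 3965. Cdkn1b, the inhibitor p27 of the same family, was at 5.70 and 9.34 TPM, and Cdkn1a exceeded it 13.0-fold in replicate 1 and 10.02-fold in replicate 2. The gap between the 2 inhibitors was larger than the spread between the libraries, and the second quantification gave ratios of 12.5 and 10.2. Rb1, the pocket protein that holds E2F factors inactive, was at 5.76 and 10.2 TPM, close to Cdkn1b in each library.

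The Ink4 inhibitors, which bind Cdk4 and Cdk6, were lower. Cdkn2c (p18) was at 0.86 and 0.60 TPM. Cdkn2d (p19) had 1.78 and 0.71 TPM, from 101 and 20 counts, so that it stood on different sides of 1 TPM in the 2 libraries. An unassigned transcript on the opposite strand, AC167363.2, overlaps Cdkn1a and had 806 counts in replicate 1 and 237 in replicate 2. Whether the counting used strand is not given in the sources used here, and the part of such reads in the value of Cdkn1a was not tested.

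Among the G1 genes, the kinase Cdk6 and the Myc partner Max were highest, Cdk6 in replicate 1 and Max in replicate 2. Cdk6 lies on chromosome 5 from 3341485 to 3531008 and had 42.8 TPM in replicate 1 and 34.3 TPM in replicate 2 (38.6 ± 6.00), from 8362 and 5154 counts. Cdk4, the related kinase that shares the D-type cyclins, had 7.81 and 17.8 TPM. Cdk6 was therefore 5.48-fold above Cdk4 in replicate 1 and 1.92-fold in replicate 2, higher in both libraries by amounts that differed between them. Cdk2, the partner of cyclin E, had 4.32 and 6.32 TPM, below Cdk4 in each library.

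The 3 D-type cyclins were close to each other, within 2.92 to 5.52 TPM in replicate 1 and 3.93 to 4.67 TPM in replicate 2. Ccnd2 had 5.52 and 4.67 TPM. Ccnd1 had 3.94 and 3.93 TPM. Ccnd3 had 2.92 and 4.03 TPM. By TPM, Ccnd2 was highest in both libraries, by 1.40-fold and 1.19-fold over Ccnd1, and the order of Ccnd1 and Ccnd3 changed between libraries. The TPM of Ccnd3 lay below its own credibility interval in both libraries. By posterior mean TPM Ccnd3 had 4.63 and 7.01, above Ccnd1 (3.96 and 3.96) in both libraries. It was then below Ccnd2 (5.73 and 5.12) in replicate 1 and above it in replicate 2. The second quantification put Ccnd2 further from Ccnd1, at 3.29-fold and 2.39-fold. Both E-type cyclins, which act after the D-type at the G1 to S transition, were lower. Ccne1 had 1.10 and 1.12 TPM, and Ccne2 had 0.74 and 1.38 TPM, so their order differed between libraries.

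Of the E2F factors, the activators that the retinoblastoma protein restrains, E2f3 was highest, with 3.23 and 3.90 TPM. E2f1 had 1.53 and 2.34 TPM. E2f2 had 0.50 and 1.05 TPM. The order E2f3, E2f1, E2f2 was the same in both libraries. Myc, the growth-promoting transcription factor, had 6.09 and 5.91 TPM (6.00 ± 0.13). Max, the partner with which Myc binds DNA and which also pairs with Myc antagonists, had 28.3 and 37.2 TPM, or 4.64-fold and 6.29-fold the level of Myc. In the second quantification Max, at 25.5 and 29.8 TPM, was above Cdk6, at 24.0 and 23.3 TPM, in both libraries.

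Pcna, the sliding clamp of the replication fork, stood apart from the other S phase genes. It lies on chromosome 2 from 132249162 to 132253314 and had 16.7 TPM in replicate 1 and 17.4 TPM in replicate 2 (17.0 ± 0.52), from 906 and 535 counts. The 6 subunits of the MCM helicase, which unwinds DNA at the fork, ran from 0.83 to 3.12 TPM and from 0.84 to 3.63 TPM. No MCM subunit came near Pcna in either library. Mcm6 was highest, at 3.12 and 3.63 TPM, and Pcna exceeded it 5.34-fold and 4.79-fold. Mcm3 followed at 2.58 and 3.12 TPM. Mcm7, Mcm4, Mcm2 and Mcm5 lay between 0.83 and 1.47 TPM in both libraries. The subunits form a ring with 1 copy of each, yet their nuclear RNA differed by 3.76-fold between Mcm6 and Mcm2 in replicate 1 and by 3.67-fold in replicate 2. The TPM of Mcm2 lay below its own credibility interval in both libraries, and by posterior mean TPM the ratios were 2.01 and 1.77. In the second quantification they were 3.23 and 2.87, and only Mcm6 reached 1 TPM in both libraries.

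Cdc6, which loads the helicase at origins, was detected at 0.20 and 0.19 TPM, from 28 and 16 counts. Ribonucleotide reductase, which makes deoxyribonucleotides, has a large subunit, Rrm1, at 1.75 and 2.27 TPM. The small subunit of cycling cells, Rrm2, was at 0.33 and 0.23 TPM, below Rrm1 by 5.30-fold in replicate 1 and 9.87-fold in replicate 2. In the second quantification the gap was 11.0-fold and 41.1-fold. Thymidylate synthase, Tyms, was at 1.03 and 1.96 TPM. Rrm2 and Cdc6 were thus the lowest of the S phase genes in each library.

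Mki67, the proliferation marker Ki-67 that coats mitotic chromosomes, was far above every other G2/M gene. It lies on chromosome 7 from 135689784 to 135716361, had 12111 counts in replicate 1 and 4144 in replicate 2, and reached 25.6 and 17.2 TPM (21.4 ± 5.96, SD, n = 2), the 92.6th percentile of protein-coding genes. Top2a, the topoisomerase that untangles replicated DNA, had 2.20 and 2.00 TPM. Mki67 exceeded Top2a 11.6-fold in replicate 1 and 8.59-fold in replicate 2, and the libraries of the 2 genes did not overlap. The second quantification placed Mki67 7.73-fold and 4.93-fold above Top2a.

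The other 9 G2/M genes ran from 0.08 to 1.17 TPM in replicate 1 and from 0.02 to 0.88 TPM in replicate 2, with 4 to 54 and 1 to 39 counts. Cdk1, the kinase of mitotic entry, had 1.17 and 0.81 TPM. Its partner Ccna2 had 0.65 and 0.88 TPM, and Ccnb1 had 0.50 and 0.28 TPM. None of the 3 reached 1 TPM in both libraries, but in the second quantification Cdk1 did, with 1.73 and 3.15 TPM, above the 1.52 and 1.95 TPM of Top2a. The kinase Aurka had 0.26 and 0.40 TPM, Aurkb had 0.31 and 0.52 TPM, and the checkpoint kinase Bub1 had 0.20 and 0.38 TPM. Ccnb2 had 5 and 4 counts, Cdc20, the activator of the anaphase-promoting complex, had 4 and 3, and the kinase Plk1 had 11 and 1. At such depth the levels of these 3 genes could not be ordered, and their credibility intervals overlapped between libraries.

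The promoters of the G2/M and S phase genes are printed to show the short elements through which DREAM and E2F factors are known to act. RefSeq promoters (GRCm38.p6) were found for 32 of the 40 genes, 38 promoters in all, and the 250 bases before the start were searched on both strands. The E2F words searched were TTTCCCGC, TTTCGCGC, TTTGCCGC and TTTGGCGC, the CHR word was TTTGAA, and the last was CCAAT, with overlapping matches counted separately. E2F and CHR letters are in capitals below and CCAAT is not marked. The RefSeq starts of Mcm5 and Mcm6 lie 60 and 41 bases before the GENCODE starts used in the files, and the bases after these starts were not found in a GENCODE transcript, as they were for 33 of the 38 promoters.
Mki67 (chr7:135716380-135716629, minus strand): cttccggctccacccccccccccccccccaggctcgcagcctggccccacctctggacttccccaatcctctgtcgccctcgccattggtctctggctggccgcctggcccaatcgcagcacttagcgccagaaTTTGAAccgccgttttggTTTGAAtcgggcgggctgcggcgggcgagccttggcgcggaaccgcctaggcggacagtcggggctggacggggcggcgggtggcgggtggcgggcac
Cdk1 (chr10:69352913-69353162, minus strand): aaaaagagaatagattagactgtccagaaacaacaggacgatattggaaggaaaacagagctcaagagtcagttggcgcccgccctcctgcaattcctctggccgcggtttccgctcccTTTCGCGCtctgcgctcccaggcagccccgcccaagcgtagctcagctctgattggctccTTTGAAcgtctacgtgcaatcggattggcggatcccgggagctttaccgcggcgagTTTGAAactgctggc
Ccnb2 (chr9:70421555-70421804, minus strand): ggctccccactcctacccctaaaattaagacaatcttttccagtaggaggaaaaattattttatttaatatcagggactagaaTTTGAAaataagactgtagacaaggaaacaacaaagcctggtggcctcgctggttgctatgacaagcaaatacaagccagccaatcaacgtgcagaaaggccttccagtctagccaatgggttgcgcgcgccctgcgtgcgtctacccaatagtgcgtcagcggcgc
Mcm5 (chr8:75109259-75109508, plus strand): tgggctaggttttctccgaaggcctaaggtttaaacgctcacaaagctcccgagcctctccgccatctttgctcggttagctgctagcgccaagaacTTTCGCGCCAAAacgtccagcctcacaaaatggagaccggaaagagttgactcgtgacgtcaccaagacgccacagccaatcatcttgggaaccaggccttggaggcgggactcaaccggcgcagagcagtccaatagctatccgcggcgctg
Mcm6 (chr1:128359706-128359955, minus strand): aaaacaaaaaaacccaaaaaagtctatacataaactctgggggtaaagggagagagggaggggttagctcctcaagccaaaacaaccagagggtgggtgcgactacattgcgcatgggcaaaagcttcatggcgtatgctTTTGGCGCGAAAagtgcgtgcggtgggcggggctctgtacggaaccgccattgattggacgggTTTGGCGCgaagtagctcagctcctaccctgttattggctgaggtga

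Of the 9 G2/M genes with a promoter, 5 held the CHR word (Mki67, Top2a, Cdk1, Ccnb2 and Cdc20), against 1 of 10 S phase genes (Mcm2), 2 of 9 G1 genes (E2f2 and E2f3) and 0 of 4 inhibitors, and 16.0% of all 32851 promoters held it. The E2F words were in 4 of 10 S phase genes (Mcm5, Mcm6, Mcm7 and Cdc6), 2 of 9 G1 genes (Cdk2 and E2f3), 1 of 9 G2/M genes (Cdk1) and 0 of 4 inhibitors, against 1.86% of all promoters. CCAAT was in all 9 G2/M genes, 8 of 10 S phase genes, 4 of 9 G1 genes and 2 of 4 inhibitors, against 33.8% of all promoters. A gene with several promoters was counted when any of them held the word, while the share of all promoters counts each promoter. The only RefSeq start of Cdk6 lay 2408 bases inside the GENCODE gene. Those of E2f1, Cdc6 and Cdkn2d lay 466, 350 and 198 bases inside, so these windows were not those before the GENCODE start. Both starts of Cdkn2c also lay inside, by 1817 and 433 bases. In 3 genes a word was held only by a start inside the gene. These were the CHR word of E2f2 (8388 bases inside), the E2F word of Mcm7 (539) and CCAAT of Ccnd3 (88416). Mki67 holds 2 CHR words, at -116 to -111 and -98 to -93 from the start, and Cdk1 holds 2, at -71 to -66 and -15 to -10. Their levels were 21.9-fold and 21.2-fold apart in the first quantification and 6.77-fold and 3.04-fold in the second. By posterior mean TPM they were 17.0-fold and 11.4-fold apart, and Cdk1 had only 36 and 25 counts. Mcm5 and Mcm6 both hold overlapping E2F words, and Mcm6 was 3.35-fold and 4.32-fold above Mcm5 (2.74-fold and 2.53-fold in the second quantification). The words are matches of letters in these windows, and no binding was measured.

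The log2 ratio of replicate 2 over replicate 1, from counts scaled by TMM, was computed for the 37 genes whose mean count was 10 or more. Ccnb2, Cdc20 and Plk1 fell below that minimum. None of the 37 was more than 2-fold higher in replicate 2, where 7.52% of all genes tested and 3.74% of protein-coding genes were. Lower by more than 2-fold were 3 (8.11%), where 5.85% of all genes tested and 5.01% of protein-coding genes were, which is near the background. In both directions together, 13.4% of all genes tested and 8.75% of protein-coding genes were more than 2-fold apart. The median ratio of the 37 genes was -0.14, beside 0.01 for all genes and -0.05 for protein-coding genes. Of the 37, 14 were higher and 23 lower in replicate 2, beside 5234 higher and 6134 lower of 11368 protein-coding genes.

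Cdkn2d differed most, with a log2 ratio of -1.76 (95% counting interval -2.55 to -1.08). Ccnb1, with 31 and 8 counts, had -1.35 (-2.73 to -0.24). Mcm5, with 123 and 41 counts, had -1.02 (-1.57 to -0.51). For Cdkn2d the whole interval lay beyond 2-fold, while those of Ccnb1 and Mcm5 reached across that threshold. In the second quantification Ccnb1 had -0.36 and Mcm5 -0.39, neither past 2-fold, against -1.97 for Cdkn2d. Mki67 had a ratio of -0.99 (-1.04 to -0.94), so that its 12111 and 4144 counts placed it at the threshold itself. Top2a, the next G2/M gene by level in the first quantification, had -0.66 (-0.95 to -0.39). Ccne2 and Tyms were the highest in replicate 2, at 0.75 (0.33 to 1.19) and 0.68 (0.33 to 1.04). The interval lay above 0 in 6 of 37 genes (16.2%) and below 0 in 14 (37.8%), where it did in 25.2% and 34.2% of protein-coding genes. Cdkn1a was at 0.06 and Cdk6 at -0.14, so the 2 highest genes were close in the libraries once depth was scaled.

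**Figure D2:**
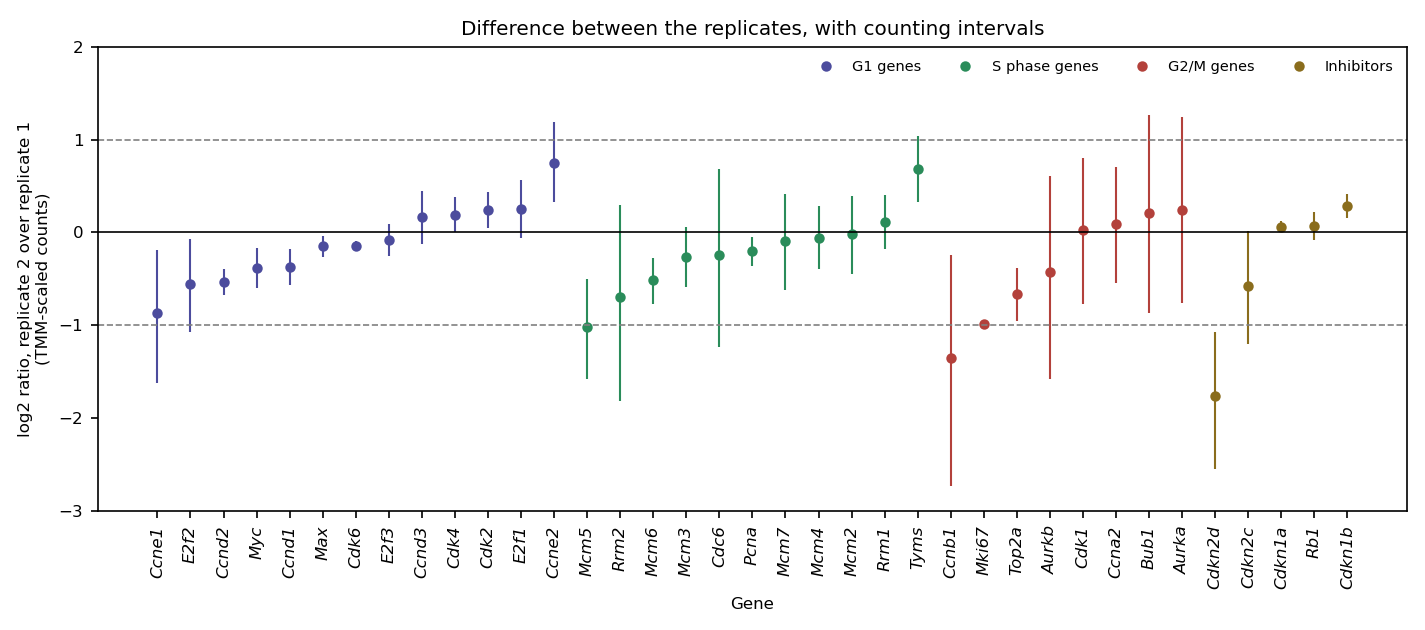
Log2 ratio of replicate 2 over replicate 1 for the 37 genes tested, coloured by class and ordered within it, with exact 95% counting intervals as vertical lines and 2-fold as dashed lines. Cdkn2d (-1.76), Ccnb1 (-1.35) and Mcm5 (-1.02) lie below the lower dashed line and no gene lies above the upper one.

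The ratios by counts and by TPM differed in sign in 12 of the 37 genes (32.4%), where they did in 26.8% of protein-coding genes. All protein-coding genes together held 20.4% of the TPM in replicate 1 and 30.3% in replicate 2. The median log2 ratio of those tested was 0.30 by TPM and -0.05 by counts. A higher TPM in replicate 2 is therefore not by itself a difference in scaled counts. Cdk4 had 516 and 401 counts, a scaled ratio of 0.19, while its TPM was 7.81 and 17.8. Most of that TPM difference lay on 1 short isoform. Cdk4-209, a 468-base transcript with a retained intron, had 8.80 and 45.3 counts and 0.73 and 7.04 TPM, which is 6.31 of the 10.02 TPM by which the gene differed. Rb1-205, a retained-intron transcript of 355 bases, likewise had 4.15 and 14.9 counts and 0.62 and 4.18 TPM, 3.56 of the 4.42 TPM by which Rb1 differed. In Cdk6 the protein-coding isoform Cdk6-203 of 697 bases held 49.97% and 19.9% of the TPM with 5.94% and 1.64% of the counts. The longest form, Cdk6-202 of 11525 bases, held 87.4% and 89.4% of the counts. In Cdk4 and Rb1 a small share of the counts, on 1 short isoform, carried most of the TPM difference between the libraries. In Cdk6 such a share carried much of the TPM in replicate 1 and less of it in replicate 2. In Mki67 the 10061-base Mki67-201 held 98.3% and 94.4% of the TPM and nearly all counts (99.9% and 99.8%).

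The share of TPM on isoforms not annotated as protein-coding was examined in the 23 genes of at least 1 TPM in both libraries, since unspliced and partly spliced RNA is known to be present in the nucleus. Its median was 24.4% in replicate 1 and 25.0% in replicate 2 (24.7% ± 0.43, SD, n = 2), beside 27.1% and 29.5% (28.3% ± 1.70) for the 8512 protein-coding genes of that level. By counts in place of TPM the medians were 10.6% and 9.51%, beside 11.7% and 13.3%. In the first quantification the share averaged over 50% in 2 genes (8.70%), where 25.1% of the protein-coding genes did. Tyms had 88.3% and 80.7%. Cdk4 had 55.4% and 77.0%. In both genes most of it lay on retained-intron isoforms, at 68.9% and 61.4% in Tyms and 55.4% and 71.5% in Cdk4. The genes over 50% changed with the quantification. In the second, Tyms had 43.7% and 35.8%, while Ccnd2, Ccne1, Cdk4, E2f3, Max, Rrm1 and Top2a were over 50% in both libraries.

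In the first quantification Cdk2 followed with 43.6% and 55.4% and Mcm3 with 45.0% and 53.5%, all on retained-intron isoforms. In Top2a, 42.3% and 56.5% lay on processed transcripts. Ccne1 had 41.3% and 50.9%, divided between retained-intron isoforms and those marked for nonsense-mediated decay. At the other end 6 genes were at 0, and 5 of them (Mki67, Myc, Cdkn1b, E2f1 and Mcm4) have no isoform of another type in the annotation, while E2f3 has and held 64.5% and 65.1% on it in the second quantification. Cdkn1a had 0.6% and 0.4%. Mcm6 differed most between the libraries, with 2.88% in replicate 1 and 33.1% in replicate 2, which by counts were 0.255% and 4.85%, from 1.07 counts in replicate 1 and 4 and 5.66 counts on 2 short isoforms in replicate 2.

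**Figure D3:**
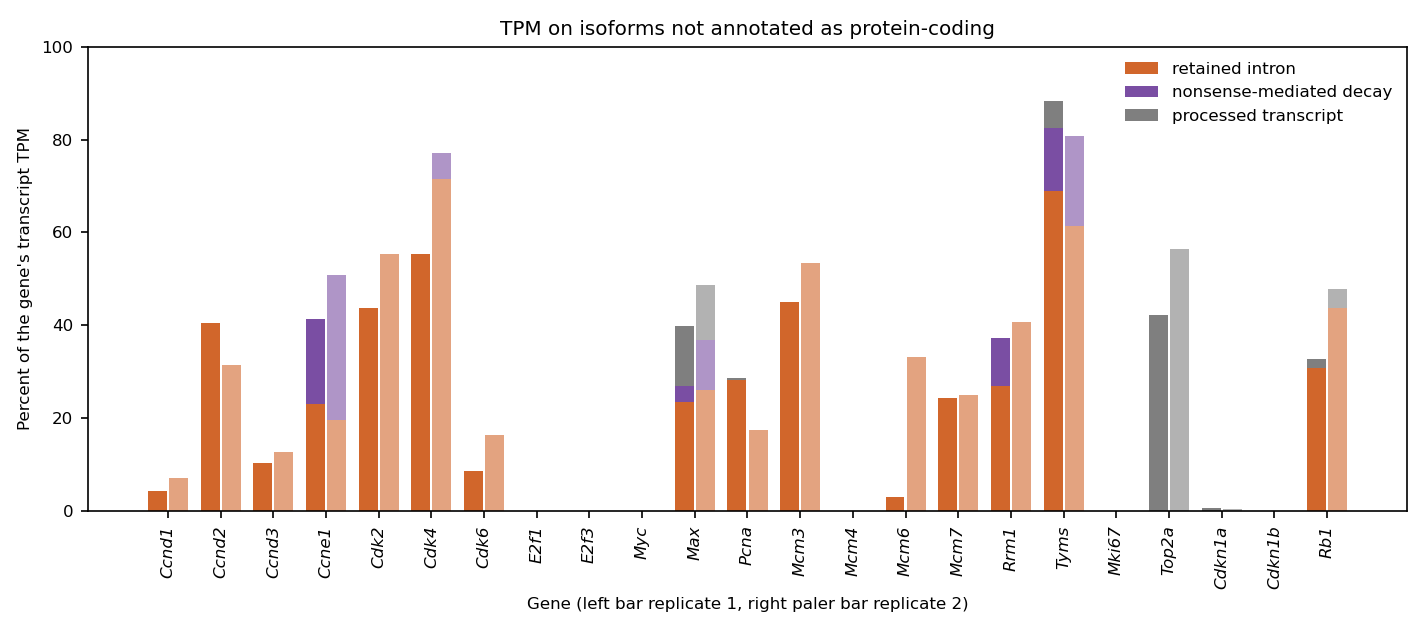
Percent of each gene's transcript TPM on isoforms annotated as retained intron (orange), nonsense-mediated decay (purple) or processed transcript (grey) for the 23 genes of at least 1 TPM in both libraries, with replicate 1 as the left and replicate 2 as the right, paler bar. Tyms (88.3% and 80.7%) and Cdk4 (55.4% and 77.0%) stand highest in this first quantification, and 6 genes are at 0.

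The authors' second quantification gave higher counts for all 37 genes in both libraries. Its count was a median of 1.32 times the first in replicate 1 and 1.65 times in replicate 2, beside 1.33 and 1.81 for protein-coding genes. The ratio was over 2 in 3 of 37 genes in replicate 1 (Tyms, Cdk1 and Rrm1) and in 14 of 37 in replicate 2, where 14.5% and 36.4% of protein-coding genes were. Tyms stood furthest apart, with 131 and 143 counts in the first and 594 and 883 in the second, a ratio of 4.53 and 6.17. Cdk1 had 36 and 25 counts in the first and 148 and 136 in the second. Rrm1 had 233 and 171 in the first and 632 and 756 in the second. The counts of these 3 genes differed more between quantifications than between libraries. For Tyms the protein-coding isoform Tyms-201 held 12.1% and 19.2% of the TPM in the first quantification and 56.3% and 64.2% in the second.

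**Figure D4:**
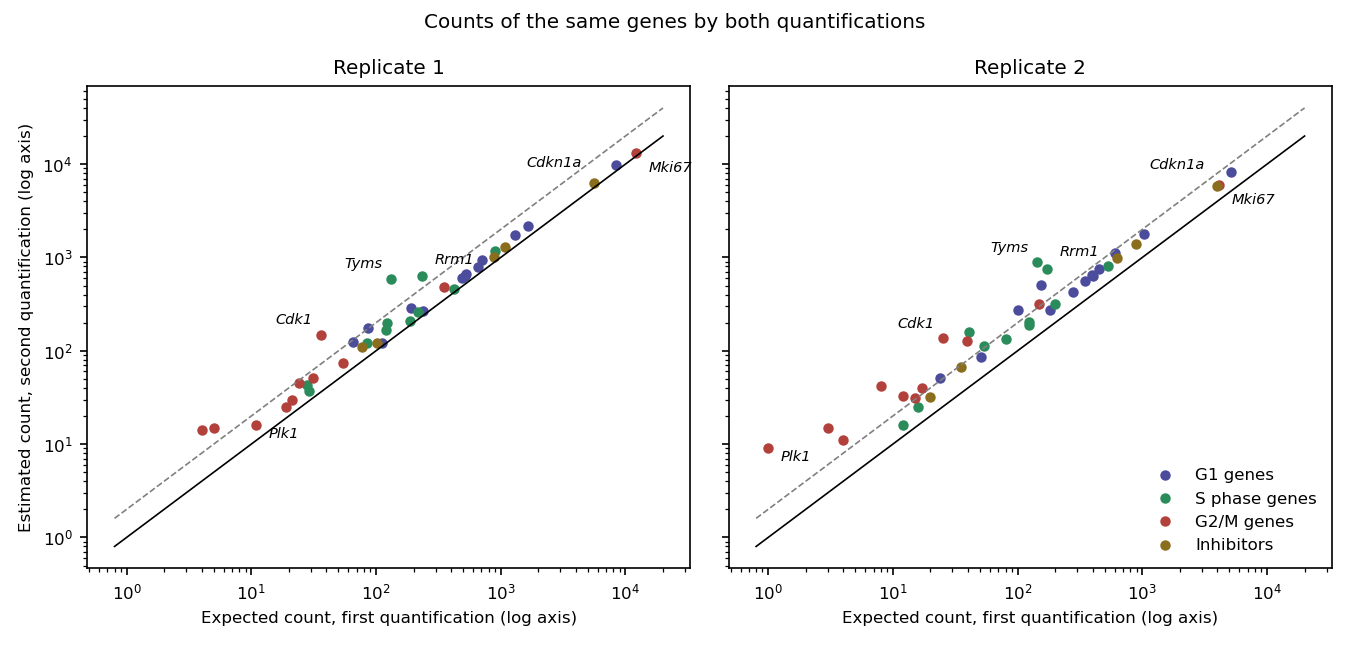
Count of each of the 40 genes in the first quantification (horizontal, log axis) and the second (vertical, log axis), by library and coloured by class, with equality as a solid line and a 2-fold excess as a dashed line. All points lie above equality, and Tyms, Cdk1 and Rrm1 lie beyond 2-fold in both libraries, as do the low counts of Ccnb2 and Cdc20.

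In the annotation, 18 of the 40 genes overlap another gene, 16 of them on the opposite strand, and 9 overlap a protein-coding gene. Ccnd1 overlaps LTO1, which had 654 and 351 counts where Ccnd1 had 654 and 344. Cdc20, with 4 and 3 counts, overlaps Elovl1 with 1152 and 1014. Ccne2, with 87 and 100 counts, overlaps Ints8 with 1035 and 666. The 4 and 3 counts of Cdc20 leave room for few reads of its abundant partner, while for Ccnd1 and Ccne2 the part of such reads was not tested. Named pseudogenes exist for Pcna, Tyms, Ccnd3, Ccnb1 and Ccnb2. Ccnb2-ps had 6 and 2 counts in the first quantification and 95.9 and 129 in the second, more than the 15 and 11 counts of Ccnb2 in the second, so values of Ccnb2 are uncertain.

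A wider set of 193 cell cycle genes in 7 lists, none of them among the 40, was read in the same way. Of these 193, 97 reached 1 TPM in both libraries, beside 38.6% of all protein-coding genes. The same 38.6% is the background for the counts at 1 TPM of each list below. Of the 175 with enough counts, 8 (4.57%) were more than 2-fold higher in replicate 2 and 19 (10.9%) lower, beside 3.74% and 5.01% of protein-coding genes. By list, the mitosis genes were lowest, with medians of 0.46 and 0.45 TPM and 14 of 54 at 1 TPM in both libraries. Other cyclins and cyclin-dependent kinases, many of which act in transcription, were highest, with medians of 8.57 and 11.3 TPM and 22 of 24 at that level. The mitosis genes were thus lowest among the 7 lists, as the G2/M genes were among the 4 classes. Where 5 or fewer genes of a list were past 2-fold, those not chosen for their level or as the largest ratio at 1 TPM are named after their values were seen.

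Of 21 genes of origin licensing and firing, 11 reached 1 TPM in both libraries, with medians of 1.32 and 1.62 TPM. The origin recognition subunits Orc4 (17.7 and 32.8 TPM) and Orc3 (12.6 and 17.3 TPM) were highest, followed by the MCM-binding protein Mcmbp (10 and 10.1 TPM). More than 2-fold higher in replicate 2 were Mcm8 (2.30) and Gins3 (1.10), both under 1 TPM, and lower were 3 of 21, Gmnn, the licensing inhibitor geminin (-1.33), Mcm10 (-1.14) and Cdc7 (-1.002). Among genes of at least 1 TPM Orc5 had the highest ratio, at 0.82. Of 36 replication fork and repair genes, 15 reached 1 TPM in both libraries. The polymerase subunits Pold3 (17.3 and 21.2 TPM) and Pola2 (8.69 and 9.33 TPM) and the clamp loader subunit Rfc2 (17.0 and 12.5 TPM) were highest. Of the 35 tested, 2 were more than 2-fold higher (Pole2 at 1.68 and Pold2 at 1.14) and 2 lower (Timeless and Pold1, the latter at -1.26). Timeless, a fork protection gene, had a ratio of -1.67 from 539 and 115 counts, and 3.19 and 1.31 TPM. In the second quantification it had 5.60 and 12.5 TPM, the opposite order by TPM, and its count ratio there is not given here. Prim2, a primase subunit, had 0.85.

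Of 15 nucleotide synthesis genes, 8 reached 1 TPM in both libraries. Samhd1, which degrades deoxyribonucleotides and restricts viruses in myeloid cells, had 222.3 and 170.7 TPM, above every one of the 40 genes in both libraries. The salvage kinases Dck (10.7 and 9.03 TPM) and Tk1 (6.02 and 11.3 TPM) followed. Rrm2b, the p53-induced small subunit of ribonucleotide reductase, was at 1.92 and 3.50 TPM, against 0.33 and 0.23 TPM for Rrm2. Rrm2b was therefore the higher small subunit in each library. Of the 13 tested, 0 were more than 2-fold higher and 1 lower, the dUTPase gene Dut at -1.60.

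Among the 54 mitosis genes, Anapc1 (18.2 and 30.0 TPM) and Cdc27 (9.85 and 11.5 TPM), both of the anaphase-promoting complex, and the securin gene Pttg1 (16.0 and 10.8 TPM) were highest. Of the 45 tested, 1 was more than 2-fold higher in replicate 2 (2.22%) and 7 lower (15.6%), beside the same 3.74% and 5.01% of protein-coding genes, and the median ratio was -0.35. The counts of these 7 ran from 23 to 316 in replicate 1 and from 7 to 81 in replicate 2. The background was not matched for counts. The spindle gene Tpx2 had -1.43 and the centromeric histone Cenpa had 1.36. Of 20 other inhibitors and antiproliferative genes, 14 reached 1 TPM in both libraries. The stress gene Gadd45b (167.1 and 103.0 TPM), the p53 antagonist Mdm2 (132.3 and 96.4 TPM) and Btg1 (31.4 and 28.2 TPM) were highest. Gadd45b had a ratio of -1.04, while Cdkn1c, the remaining Cip/Kip inhibitor, had 1.95 from 22 and 59 counts. Of the 17 tested, Cdkn1c alone was more than 2-fold higher, and 2 were lower, Gadd45b and Gadd45g (-2.03).

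Of 23 genes of the E2F, DREAM and MYC network, 13 reached 1 TPM in both libraries. Mxd1, a Max partner that opposes Myc, had 27.6 and 14.6 TPM with a ratio of -1.22, above Myc itself in both libraries. The extended Max network genes Mlxip (11.6 and 14.99 TPM) and Mga (8.97 and 10.4 TPM) came next, and the repressor E2f6 had a ratio of 1.26. Of the 21 tested, 2 were more than 2-fold higher (E2f6 and Mxi1, the latter at 1.17) and 2 lower (Mxd1 and Mybl2, the latter at -2.54). In the list of other cyclins and kinases, Ccnl1 (137.5 and 109.8 TPM) and Ccnl2 (49.8 and 34.0 TPM), which act in splicing, and Ccnt2 (35.2 and 44.1 TPM), which acts in transcript elongation, were highest. Of the 23 tested, 0 were more than 2-fold higher and 2 lower, Cdk9 (-1.01) and Ccnf (-1.07), with Cdk8 highest at 0.83.

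**Figure D5:**
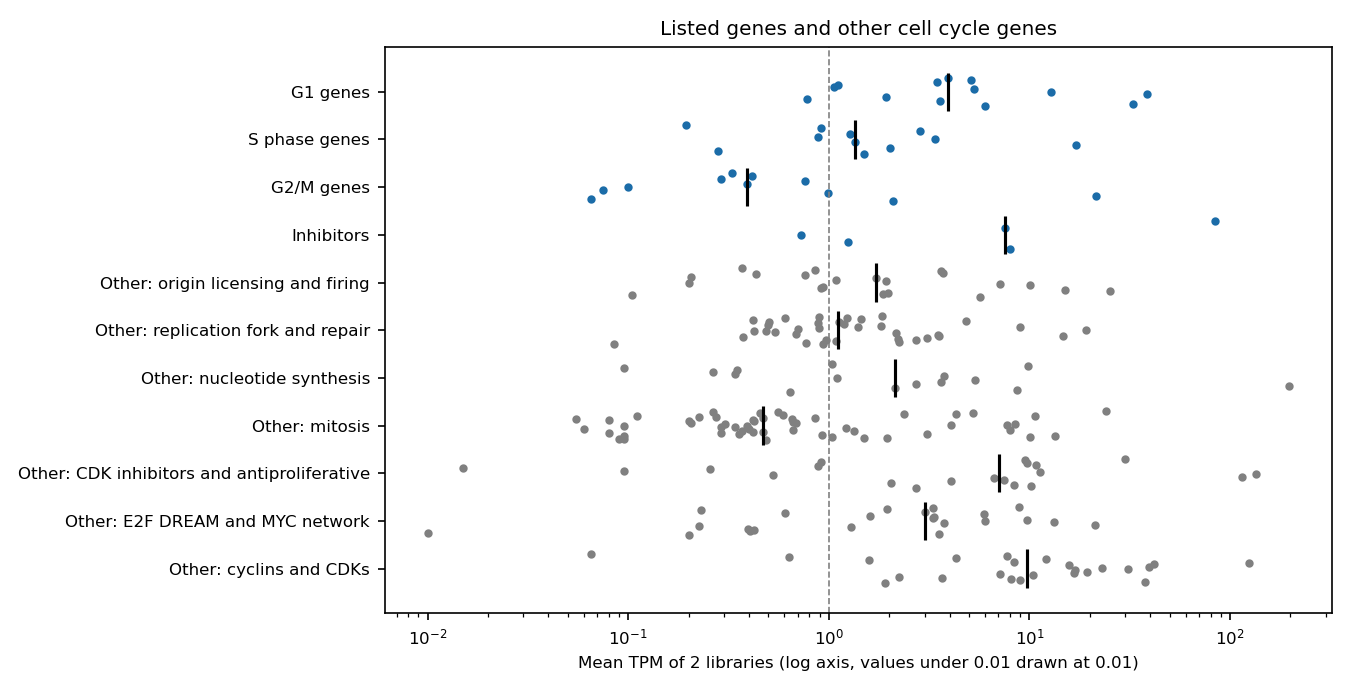
Mean TPM over the 2 libraries (log axis) of each of the 40 genes (blue, 4 classes) and of 193 other cell cycle genes (grey, 7 lists), with black bars at the median of each row and a dashed line at 1 TPM. The G2/M genes and the other mitosis genes have the lowest medians, both under 1 TPM.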

How the data were processed

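Total RNA-seq of 2 libraries of 1 group was read from the authors' deposited tables on mm10 with GENCODE M21. Per the file headers, the first quantification gives the authors' expected counts, TPM, bounds of a TPM credibility interval (the level of the interval, read here as a signal, is not stated in the deposited headers) and the deposited percent of each gene's TPM on each transcript, under column names that RSEM writes. The second gives the authors' estimated counts and TPM per transcript under column names that kallisto writes, summed here per gene. It has no row for 86 genes. Aligner, versions, strand setting: not given in the sources used here.

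Expected counts were rounded and scaled by TMM (edgeR 4.0.16, R 4.3.3; factors 0.944 and 1.06). Log2 ratios used a prior count of 0.5 and genes of mean count at least 10, and 2-fold counted as a difference. With 1 library on each side there is no test. Intervals are exact binomial (Clopper-Pearson, 95%) and cover counting error alone, as no molecular identifiers were named. Class levels are medians of log2(TPM + 1), pseudocount 1, printed as TPM. DESeq2 1.42.0 size factors served as an alternative, and the ratio code was tested on simulated data. The libraries are not duplicates (chi-square per gene 156.4 over 14831 genes).

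The 40 members and all lists were chosen with earlier results of these data known. Named are all 40 genes by role. Of each other cell cycle list, the 3 genes of highest mean TPM are named and, among those of at least 1 TPM in either library, the largest ratio in each direction. Of each cell type list the highest is named.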

Additional observations from a re-analysis of the deposited data

How the results depend on the processing

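The order of the 4 classes was the same in both libraries and in both quantifications, but levels in TPM moved. The second quantification gave medians of 2.85 (G1), 0.973 (S) and 3.71 TPM (inhibitors). Rescaling TPM so that only lncRNAs and protein-coding genes made up the total gave 13.9 (G1), 4.46 (S), 1.21 (G2/M) and 25.2 (inhibitors). Posterior mean TPM gave 4.73 (G1), 1.88 (S) and 0.765 (G2/M), and leaving out G2/M genes under 0.1 TPM gave 0.616. At a threshold of 5 TPM, 9 genes passed in place of 23. At 1 TPM, 20 passed in the second quantification and 33 after rescaling, and 25 in either library alone (range 25 to 25 without replicate 1 or replicate 2). The share of all protein-coding genes that passed under these settings is not given here, so these counts have no background. Rescaling raised every gene of a library by the same factor, so its higher count is not particular to the listed genes. Without replicate 1 or replicate 2, medians ranged from 3.94 to 4.03 (G1), 1.14 to 1.47 (S), 0.31 to 0.40 (G2/M) and 5.70 to 9.34 (inhibitors), and the non-coding isoform share from 24.4% to 25.0%. That share was 39.6% in the second quantification and 12.4% among genes of at least 5 TPM.

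No listed gene was more than 2-fold higher in replicate 2 under any setting, and 2 to 4 were lower. Of the 3 genes called, Cdkn2d was called under each setting. Mcm5 was lost with library totals, a prior count of 2 and the second quantification (-0.39), and Ccnb1 with the second quantification (-0.36) and a mean count of at least 50. Mki67 passed 2-fold with DESeq2 size factors (-1.04) and with the second quantification (-1.22), where Ccne1 (-1.37) and Rrm2 (-1.26) also passed, and Plk1 (-2.49) passed with no filter on counts. The median ratio was 0.03 with library totals and -0.37 with the second quantification. The causes were not tested. No paired analysis was possible because the series has 1 group. Genes with under 10 counts can be neither ranked nor compared between libraries at this depth.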
